A study of Homo sapiens with 6 samples.

Results

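Metallothioneins, their transcriptional activator MTF1 and the zinc exporter SLC30A1 were followed across 6 RNA sequencing libraries of NCI-N87, an established human gastric cancer line. The 10 genes were chosen by symbol, as MT1A, MT1E, MT1F, MT1G, MT1H, MT1M, MT1X, MT2A, MTF1 and SLC30A1, and all 10 had a row among the 58735 genes of the deposited table. They were picked with a strong spread between libraries of one group already known, so that spread is described here and not tested. The 3 EGLN3 libraries came from cells given PLVX-IRES-Puro-EGLN3, a puromycin-selectable plasmid that expresses EGLN3, a prolyl hydroxylase of hypoxia-inducible factors. The 3 control libraries came from cells given the same plasmid without an insert. Plasmid exposure is labelled as 1 day for 5 libraries and as 5 days for EGLN3 replicate 3, and puromycin selection as 7 days for all 6. The labels name no promoter for the insert and no clone. Whether replicates were separate cultures is not stated, and the p-values therefore reflect library-to-library spread that may be technical.

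Metallothioneins are small cysteine-rich proteins that bind zinc and copper and take up cadmium and other heavy metals. When free zinc rises in the cell, the zinc finger factor MTF1 enters the nucleus and binds metal response elements, short DNA motifs found upstream of metallothionein genes and of SLC30A1. SLC30A1, also called ZnT1, then moves zinc out across the plasma membrane. Glucocorticoids and oxidative stress are further known inducers of MT2A and its relatives.

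The libraries held 15157265 to 16767383 gene counts, and 15726 genes had enough counts to be tested. EGLN3 itself was counted 9 to 11 times in each control library and 7298, 27674 and 27494 times in EGLN3 replicates 1 to 3. Of the gastric epithelial markers, 10 of 12 were tested, with KRT8 and ERBB2 at control means of 18900 and 10000 CPM, and the secreted factors TFF1 and TFF2 held at most 8 counts in any library. Fibroblast markers summed to 4.76 to 5.58 CPM in controls and 3.88 to 4.61 CPM in EGLN3 libraries, with COL1A2 and LUM at 0 counts throughout. Leukocyte markers summed to 6.63 to 9.33 and 7.22 to 8.89 CPM, and endothelial markers to 1.4 to 1.57 and 0.828 to 1.62 CPM. Their part in the results was not tested. In bulk libraries like these, fewer cells with a transcript and less of it per cell cannot be told apart.

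Metallothionein genes of the cluster on chromosome 16 were either plainly expressed or almost uncounted, with little in between. The 8 metallothioneins examined lie within 76 kb in GRCh38, from MT2A (56608199 to 56609497) to MT1X (56682424 to 56684196), and each except MT1G lies on the plus strand. MT2A held 3281 counts over the 6 libraries, MT1X held 1005, MT1E (56625475 to 56627112) held 400 and MT1F (56657694 to 56660698) held 314. Between them lie MT1M, MT1A and MT1H with 0 counts in all 6 libraries, and MT1G with 1 count, in EGLN3 replicate 1. A count of 0 allows up to 3 counts, or 0.174 to 0.197 CPM in a library. CPM relate the counts to library size after TMM scaling between libraries. These limits cover counting error only, since PCR copies are not independent molecules. MT1H, at 0 counts, starts 1748 nt past the end of MT1G and lies between MT1F and MT1X, which are both expressed.

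**Figure D1:**
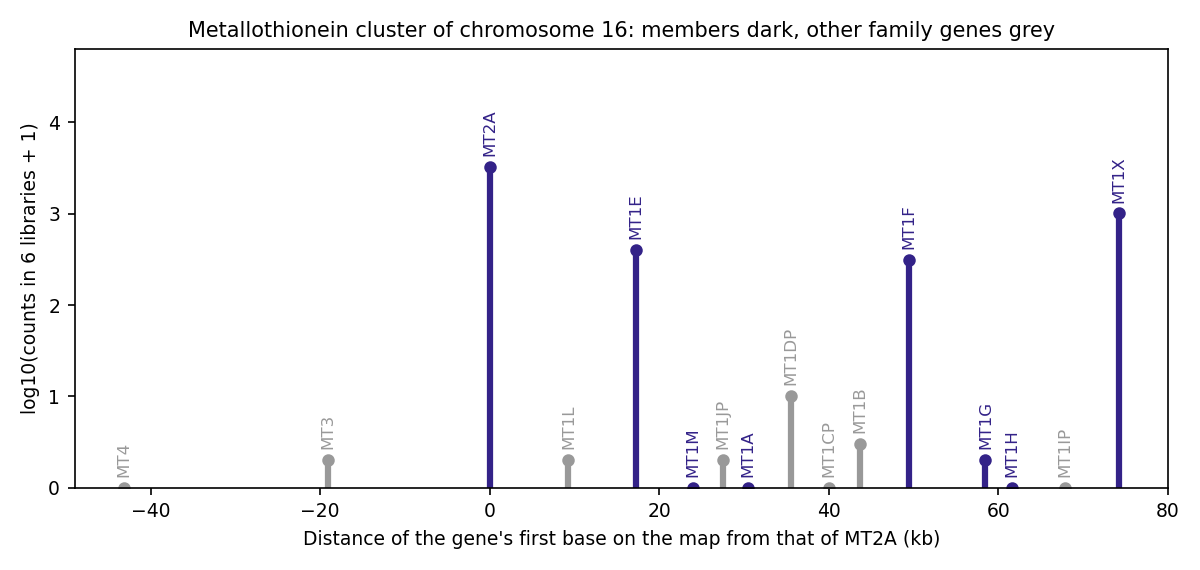
Counts of the metallothionein genes over all 6 libraries, as log10(counts + 1) on the vertical axis, by distance in kb from the start of MT2A on the horizontal axis. The 4 expressed genes MT2A, MT1E, MT1F and MT1X stand between members and other family genes (grey) that hold 9 counts or fewer.

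Promoters of expressed and uncounted metallothioneins are shown because MTF1 acts through them. RefSeq start sites on GRCh38.p14 gave a promoter for 5 of the 10 genes, MT2A, MT1X, MT1H, MTF1 and SLC30A1, each running from 250 bases before to 50 bases after the start. Capitals mark the core letters of the metal response element, TGCACNC or TGCGCNC, on either strand, with no overlap between matches. MT2A (chr16:56608334-56608633) and MT1X (chr16:56682220-56682519) were expressed, MT1H (chr16:56669564-56669863) was at 0, and SLC30A1 (chr1:211579112-211579411, minus strand) was expressed.
MT2A: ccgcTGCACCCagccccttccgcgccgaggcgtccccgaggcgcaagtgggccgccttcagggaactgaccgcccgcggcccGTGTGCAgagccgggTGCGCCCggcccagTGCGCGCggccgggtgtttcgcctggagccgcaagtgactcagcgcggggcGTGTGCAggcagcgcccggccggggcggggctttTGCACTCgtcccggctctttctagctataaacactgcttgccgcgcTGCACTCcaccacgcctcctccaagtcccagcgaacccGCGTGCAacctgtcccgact
MT1X: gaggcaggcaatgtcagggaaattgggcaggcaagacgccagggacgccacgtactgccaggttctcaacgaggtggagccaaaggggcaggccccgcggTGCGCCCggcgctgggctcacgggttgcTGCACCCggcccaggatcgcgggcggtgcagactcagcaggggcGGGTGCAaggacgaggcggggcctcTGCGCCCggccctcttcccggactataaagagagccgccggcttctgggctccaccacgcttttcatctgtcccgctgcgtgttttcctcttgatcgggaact
MT1H: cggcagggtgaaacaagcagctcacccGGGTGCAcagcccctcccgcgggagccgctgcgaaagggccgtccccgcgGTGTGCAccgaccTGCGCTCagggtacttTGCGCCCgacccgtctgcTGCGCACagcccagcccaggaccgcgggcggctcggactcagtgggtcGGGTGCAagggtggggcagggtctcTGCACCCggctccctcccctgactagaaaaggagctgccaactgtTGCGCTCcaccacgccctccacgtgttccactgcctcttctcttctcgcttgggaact
SLC30A1: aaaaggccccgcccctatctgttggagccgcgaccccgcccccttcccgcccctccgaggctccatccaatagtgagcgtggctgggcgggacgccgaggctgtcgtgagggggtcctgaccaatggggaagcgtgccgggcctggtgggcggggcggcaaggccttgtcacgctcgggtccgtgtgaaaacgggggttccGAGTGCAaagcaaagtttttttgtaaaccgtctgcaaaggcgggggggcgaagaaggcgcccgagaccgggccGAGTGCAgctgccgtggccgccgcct

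The MT2A and MT1H windows each held 8 matches, MT1X held 4, SLC30A1 held 2 and MTF1 held 0. Of 35116 RefSeq promoters of the same length, 29.6% held at least 1 match, 8.6% at least 2, 0.601% at least 4 and 0.0199% at least 8. So the uncounted MT1H carried as many of these letters as MT2A, the most highly counted metallothionein. MT2A and MT1X have the letters TATAAA at 29 and 30 bases before the start, which 2.63% of all promoters hold within 50 bases before the start, and MT1H has none there. A match is a description of letters and not a bound site, and 0 matches says only that these letters are not in this window. The SLC30A1 window starts outside the gene span of the deposited table, because RefSeq places its start farther upstream. The MT2A window lies wholly inside the deposited span of MT2A, because RefSeq places that start farther downstream.

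None of the 6 members with enough counts to be tested passed a test for a difference between the plasmids, and in each the groups overlapped. Groups lay apart for only 6.26% of all tested genes, so overlap in 6 of 6 says nothing particular about the members. edgeR's quasi-likelihood test called 0 of 6 at an adjusted p under 0.05 and 0 of 6 at an unadjusted p under 0.05, and DESeq2 and limma-voom also called 0. Over all 15726 genes, edgeR called 0.00636%, which is EGLN3 alone, and 1.11% had an unadjusted p under 0.05. The remaining 4 members, MT1A, MT1G, MT1H and MT1M, did not pass the filter on low counts and have no fold change. The median log2 fold change of the 6 was 0.06, beside 0.01 over all tested genes.

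MT2A (ENSG00000125148), the main metallothionein of most human cells, measured 24.7, 38.2 and 39.3 CPM in control replicates 1 to 3 and 52.6, 27.3 and 22.9 CPM in EGLN3 replicates 1 to 3. The highest and the lowest of the 6 libraries were both EGLN3 libraries, so the groups overlapped completely. The group means were 34.1 ± 8.14 CPM for the empty plasmid and 34.3 ± 16 CPM for EGLN3 (SD, n = 3 each), with a log2 fold change of 0.01 (SE 0.35, 95% interval -0.83 to 0.85; edgeR, adjusted p = 1). One library turns the MT2A direction, since the log2 fold change was -0.42 (SE 0.23; edgeR, adjusted p = 0.48) without EGLN3 replicate 1 and -0.18 (SE 0.37; adjusted p = 0.96) without control replicate 1. EGLN3 replicate 1 also had the least EGLN3 of its group, 480 CPM against 1640 and 1710 CPM, and the part of this was not tested. MT2A in EGLN3 replicate 1 was 2.29 times that in EGLN3 replicate 3, and control replicate 3 was 1.59 times control replicate 1. The coefficient of variation was 23.9% in controls and 46.7% with EGLN3, a description of the spread for which these genes were picked.

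MT1X (ENSG00000187193), a type 1 isoform, was highest and lowest in the same libraries as MT2A. Its values were 7.78, 12.5 and 13.3 CPM in control replicates 1 to 3 and 16.5, 7.16 and 5.73 CPM in EGLN3 replicates 1 to 3. EGLN3 replicate 1 was the highest library and the other 2 EGLN3 libraries the lowest. The means were 11.2 ± 2.97 and 9.78 ± 5.82 CPM (SD, n = 3 each), with a log2 fold change of -0.19 (SE 0.43, 95% interval -1.22 to 0.83; edgeR, adjusted p = 1). Without EGLN3 replicate 1 the MT1X log2 fold change was -0.78 (SE 0.27; edgeR, adjusted p = 0.48) and its groups no longer overlapped, so that library decides its size. Groups part more easily with 1 library left out, and the share of all genes with groups apart was not computed there. In the annotation 321 nt of the exons of MT1X are shared with AC026461.1 on the same strand, a transcript at 0 counts in all libraries, and the handling of reads in that stretch is not stated.

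MT1E (ENSG00000169715) and MT1F (ENSG00000198417) were the expressed metallothioneins with the fewest counts. MT1E measured 2.73, 3.76 and 5.01 CPM in control replicates 1 to 3 and 5.99, 3.08 and 4.42 CPM in EGLN3 replicates 1 to 3. Its log2 fold change was 0.23 (SE 0.33, 95% interval -0.56 to 1.02; edgeR, adjusted p = 1), on means of 3.83 ± 1.14 and 4.5 ± 1.46 CPM (SD, n = 3 each), and -0.02 without EGLN3 replicate 1. MT1F measured 2.32, 3.76 and 3.82 CPM in controls and 5.2, 3.31 and 1.18 CPM with EGLN3. MT1F in EGLN3 replicate 1 was 4.39 times that in replicate 3. Its log2 fold change was -0.03 (SE 0.51, 95% interval -1.25 to 1.19; edgeR, adjusted p = 1), on means of 3.3 ± 0.848 and 3.23 ± 2.01 CPM (SD, n = 3 each). Single libraries set its size and direction, at 0.36 (SE 0.34) without EGLN3 replicate 3, -0.53 (SE 0.46) without EGLN3 replicate 1, -0.23 (SE 0.56) without control replicate 1 and 0.09 without control replicate 2 or 3 (edgeR, adjusted p from 0.58 to 1). Family transcripts share exact stretches, of up to 85 nt between MT1E and MT1G, 64 nt between MT1F and MT1M and 96 nt between MT1X and MT1G, so the division of reads among near-identical genes is uncertain.

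**Figure D2:**
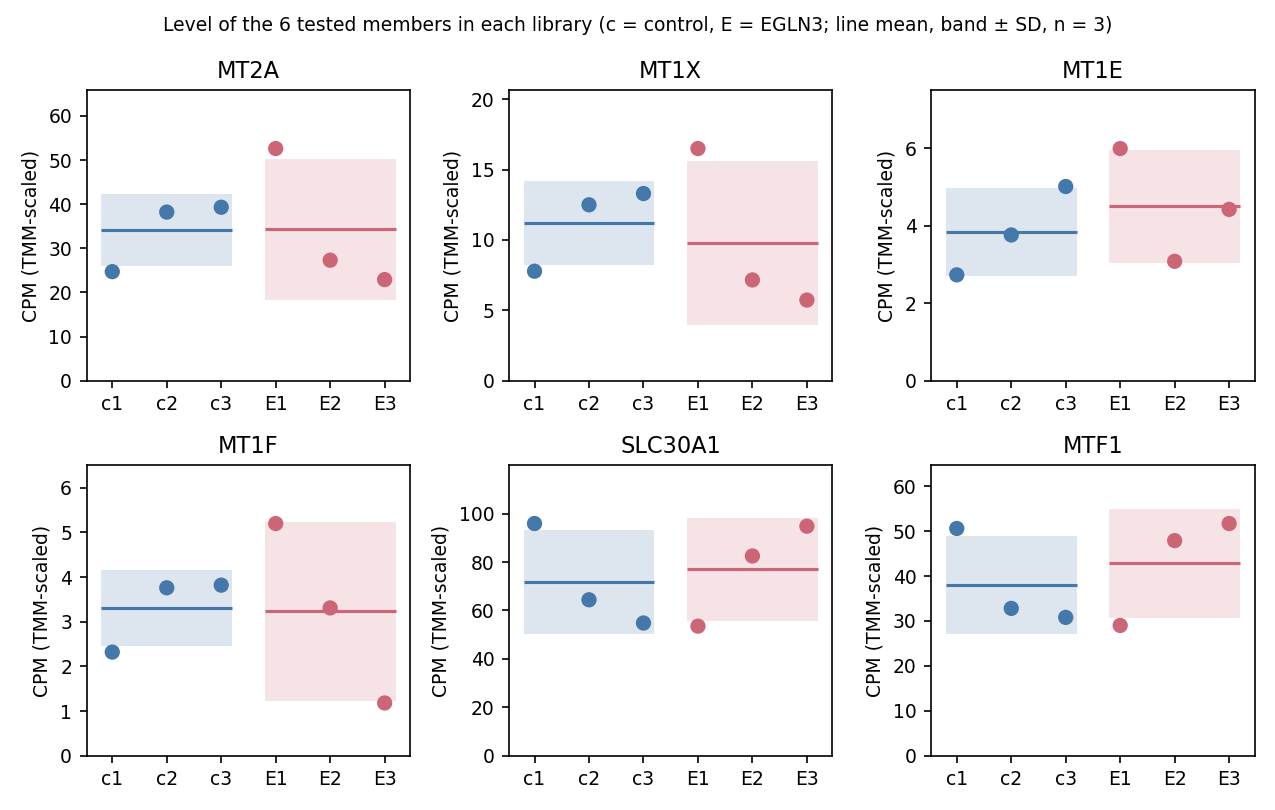
CPM (TMM-scaled, from 0) of the 6 tested members in control (c1 to c3) and EGLN3 (E1 to E3) libraries, with group means as lines and SD as bands (n = 3). The 4 metallothioneins are highest in EGLN3 replicate 1, where SLC30A1 and MTF1 are lowest, and the groups overlap in each panel.

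The counts of MT2A, MT1X, MT1E and MT1F together came to 37.5, 58.2 and 61.4 CPM in control replicates 1 to 3 and to 80.2, 40.9 and 34.3 CPM in EGLN3 replicates 1 to 3. The means were 52.4 ± 13 and 51.8 ± 24.9 CPM (SD, n = 3 each), given as a description with no test. Within a group, the highest library stood 1.64 times above the lowest in controls and 2.34 times with EGLN3.

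The make-up of that pool was steady for MT2A while its size varied. MT2A gave 65.8%, 65.6% and 64% of the pool in control replicates 1 to 3, and its share in EGLN3 replicates 1 to 3 was 65.5%, 66.9% and 66.9%. MT1X gave 20.7%, 21.4% and 21.6% in controls and 20.5%, 17.5% and 16.7% with EGLN3. Its shares did not overlap between the groups, but control replicate 1 and EGLN3 replicate 1 differed by less than their 95% exact binomial intervals (17.7% to 24.1% and 18.3% to 22.9%). The mean MT1X share was 21.3% ± 0.469 in controls and 18.2% ± 2 with EGLN3 (SD, n = 3 each; exact permutation test, two-sided, p = 0.1, or 0.4 after Benjamini-Hochberg adjustment over 4 genes). That is the smallest p that 3 against 3 allows, so no share could pass 0.05 here and the test does not show that the shares were alike.

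MT1E and MT1F parted from this pattern in EGLN3 replicate 3, the library whose label gives 5 days with the plasmid. There MT1E made up 12.9% of the pool (95% exact binomial interval 10.2% to 16%) and MT1F 3.45% (2.09% to 5.34%). In the other 5 libraries MT1E lay between 6.46% and 8.16% and MT1F between 6.19% and 8.1%. EGLN3 replicate 3 held 71 MT1E counts and 19 MT1F counts, a ratio of 3.74 (95% exact binomial interval 2.23 to 6.57), whereas the ratio ran from 0.929 to 1.31 in the rest. The comparison of these genes in that library was chosen after its values were seen, and it rests on 1 library. The binomial intervals cover counting error only and leave out the spread between libraries.

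**Figure D3:**
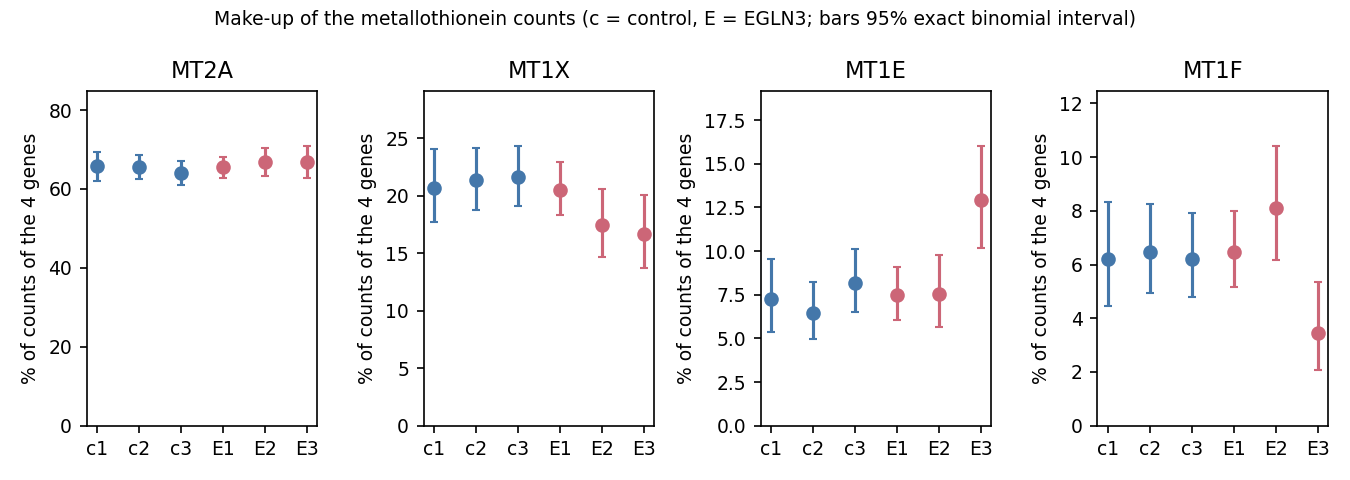
Share of each gene in the summed counts of MT2A, MT1X, MT1E and MT1F, in percent from 0, per control (c1 to c3) and EGLN3 (E1 to E3) library, with 95% exact binomial intervals as bars. MT2A stays between 64% and 66.9%, and EGLN3 replicate 3 has the highest MT1E share (12.9%) and the lowest MT1F share (3.45%).

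SLC30A1 and MTF1 were high where the metallothioneins were low. SLC30A1 (ENSG00000170385, chromosome 1 minus strand, 211571568 to 211578742) measured 95.9, 64.4 and 54.8 CPM in control replicates 1 to 3 and 53.5, 82.5 and 94.8 CPM in EGLN3 replicates 1 to 3. Control replicate 1 and EGLN3 replicate 3 were thus almost level at the top, and EGLN3 replicate 1 was lowest. Its log2 fold change was 0.10 (SE 0.29, 95% interval -0.59 to 0.79; edgeR, adjusted p = 1), on means of 71.7 ± 21.5 and 76.9 ± 21.3 CPM (SD, n = 3 each). It turned to -0.08 (SE 0.31) without EGLN3 replicate 3 and to -0.06 (SE 0.31) without control replicate 3, and was 0.37 (SE 0.27) without control replicate 1 (edgeR, adjusted p = 1, 1 and 0.96).

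MTF1 (ENSG00000188786, chromosome 1 minus strand, 37809567 to 37859620) measured 50.6, 32.8 and 30.8 CPM in controls and 29, 47.9 and 51.7 CPM with EGLN3. Its order of libraries was the exact reverse of that of MT2A. The MTF1 means were 38.1 ± 10.9 and 42.9 ± 12.2 CPM (SD, n = 3 each), with a log2 fold change of 0.17 (SE 0.29, 95% interval -0.52 to 0.86; edgeR, adjusted p = 1). The 95% intervals of all 6 members reach at least from -0.52 to 0.79 on the log2 scale, so similar group means do not show that EGLN3 left the genes unaltered.

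The ratio of pooled metallothionein counts to SLC30A1 counts was 0.391, 0.904 and 1.12 for control replicates 1 to 3, and for EGLN3 replicates 1 to 3 it was 1.5, 0.495 and 0.361. This is a 4.15-fold range over the 6 libraries, with group means of 0.805 ± 0.375 and 0.786 ± 0.623 (SD, n = 3 each), again a description. For MTF1 as the denominator the range was 4.18-fold.

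Levels can be ordered between genes only per length, on the scale of the deposited FPKM (fragments per kilobase of gene length, scaled for library size). Over the 6 libraries, mean FPKM were 26.1 ± 8.8 for MT2A, 13.4 ± 3.44 for SLC30A1, 5.87 ± 2.38 for MT1X, 4.99 ± 1.3 for MTF1, 3.93 ± 1.17 for MT1E and 1.72 ± 0.732 for MT1F (SD, n = 6). On the deposited lengths MT2A stood above SLC30A1, SLC30A1 above MT1X and MT1E above MT1F in 6 of 6 libraries. MT1X was above MTF1 in 3 of 6 and MTF1 above MT1E in 4 of 6, so these neighbours do not differ beyond their spread. The deposited lengths bear on this order. MT2A is entered at 1299 nt, its whole gene span, and MT1X at 1773 nt, whereas their longest coding transcripts in GENCODE 29 have 786 and 538 nt. The deposited length is 1.65 times the longest coding transcript for MT2A, 3.3 times for MT1X and 2.74 times for MT1F, but 1 and 1.01 times for SLC30A1 and MTF1. With the longest coding transcript as the length, an alternative added after seeing the data, mean FPKM were 43.2 ± 14.5 for MT2A, 19.3 ± 7.84 for MT1X, 13.4 ± 3.44 for SLC30A1, 5.67 ± 1.69 for MT1E, 5.03 ± 1.31 for MTF1 and 4.7 ± 2 for MT1F (SD, n = 6). MT1X then stood above SLC30A1 in 3 of 6 libraries, MT1E above MTF1 in 3 of 6 and MTF1 above MT1F in 3 of 6, so the places of these genes depend on the length used. MT2A had the highest mean on both lengths. The longest transcripts of any kind have 1727 nt for MT1X and 1573 nt for MT1F, near the deposited lengths, and which transcripts the cells used was not tested.

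The metallothioneins moved against SLC30A1 and MTF1 along the main axis on which the libraries differ. The first principal component of log2 CPM over all tested genes held 70% of the variance and separated EGLN3 replicate 1 and control replicates 3 and 2 from EGLN3 replicate 2, control replicate 1 and EGLN3 replicate 3. Across the 6 libraries, Pearson's r with that component was 0.99 for MT2A, 0.97 for MT1X, 0.86 for MT1F and 0.74 for MT1E, and it was -0.98 for SLC30A1 and -0.97 for MTF1. Such values are common here, since 20.2% of tested genes had an r above 0.9 and 21.1% one below -0.9. Between members, r was 0.97 for MT2A with MT1X, 0.99 for MTF1 with SLC30A1 and -0.96 for MT2A with SLC30A1. For MT1E it was lower, at 0.32 with MT1F, 0.62 with MT1X and 0.71 with MT2A. These are descriptions over 6 libraries that all genes share.

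**Figure D4:**
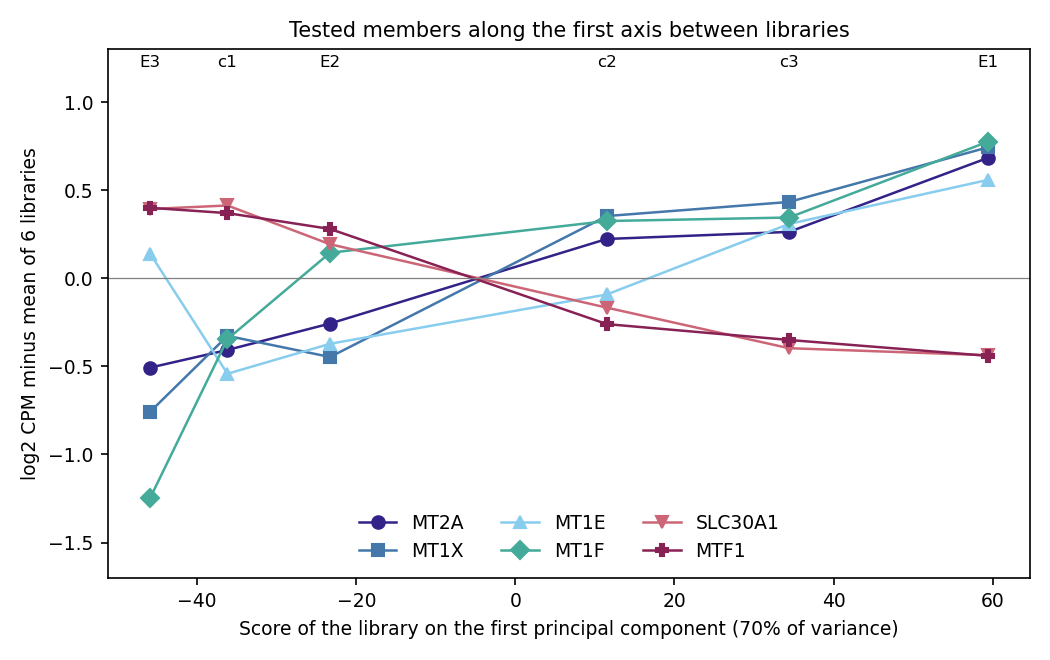
log2 CPM of each tested member minus its mean over the 6 libraries, against the score of the library on the first principal component (control c1 to c3, EGLN3 E1 to E3). The 4 metallothioneins lie above 0 in EGLN3 replicate 1 and control replicate 3, at the right end, where SLC30A1 and MTF1 lie below 0.

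Gene length and GC content differ between the members. SLC30A1 and MTF1 have deposited lengths of 5474 and 8024 nt, against 1052 to 1889 nt for the 4 expressed metallothioneins, and the longest transcripts have a GC content of 38% and 46.7% against 53.5% to 58.2%. The SD of log2 CPM within groups was 0.52 for MT2A, 0.63 for MT1X, 0.45 for MT1E, 0.78 for MT1F and 0.42 each for MTF1 and SLC30A1, with a median of 0.3 over all tested genes. After removing smooth per-library trends on GC content and length, it was 0.36, 0.48, 0.35, 0.59, 0.24 and 0.28 in the same order, with a median of 0.24. When 1 surrogate variable, a term for unlabelled differences estimated from the same libraries, was taken out too, MT2A, MT1X, MTF1 and SLC30A1 came to 0.08, 0.09, 0.08 and 0.09, beside a median of 0.09. That term is fitted to the spread that the libraries share, so a fall of this kind follows in part from its construction. MT1E and MT1F stayed at 0.28 and 0.39, above 86.2% and 93.4% of tested genes. They have the fewest counts of the tested members, and counting alone gives them a coefficient of variation of 12.2% and 13.8%. After this correction EGLN3 replicate 3 was the highest library for MT1E (log2 CPM 2.56) and the lowest for MT1F (1.08). The part of length, GC content or RNA quality in the spread of the members was not tested further.

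With that surrogate variable and the trends in the model, edgeR called 152 genes and 0 of the 6 members, with 0 members at an unadjusted p under 0.05. There the log2 fold change was 0.02 (SE 0.07) for MT2A, -0.21 (SE 0.12) for MT1X, 0.11 (SE 0.07) for MTF1 and -0.04 (SE 0.06) for SLC30A1 (edgeR, adjusted p = 0.93, 0.47, 0.56 and 0.85). These SEs leave out the error of estimating the surrogate variable and may be too small.

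**Figure D5:**
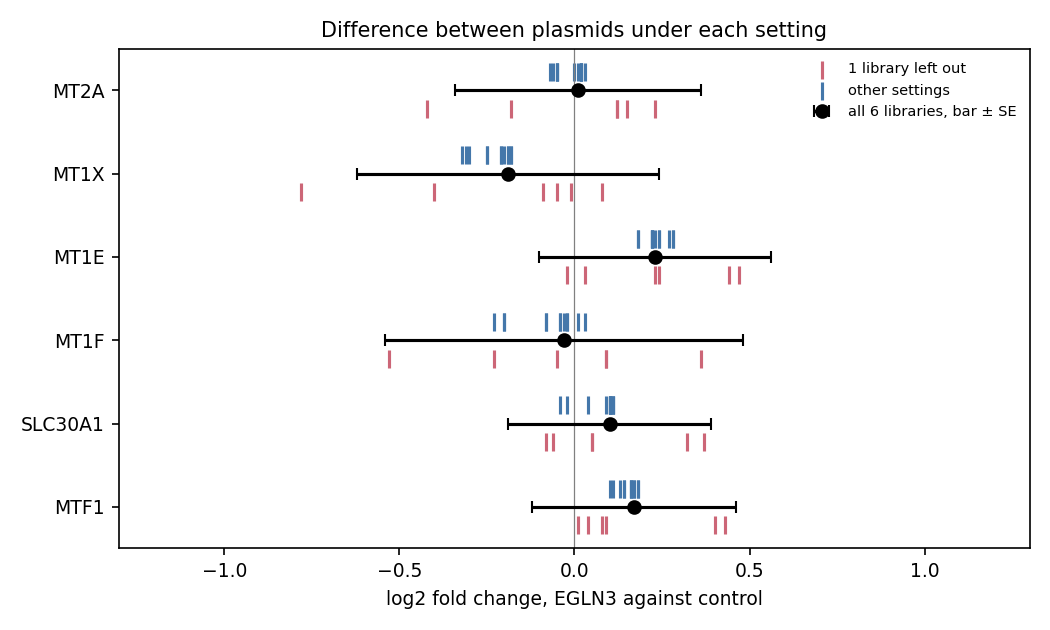
log2 fold change of EGLN3 against control for the 6 tested members, with all libraries (black points, bars ± SE), with 1 library left out (red ticks) and under 12 other settings (blue ticks). Leaving out a library moves MT1X between -0.78 and 0.08, while the other settings keep it between -0.32 and -0.18.

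The genes most like the 4 expressed metallothioneins across libraries came from varied cell processes. Among 14361 genes outside the family with a mean of at least 1 CPM, the highest Pearson's r over 6 libraries with the mean centred log2 CPM of MT2A, MT1X, MT1E and MT1F was that of RAB25, a small GTPase of epithelial recycling endosomes (r = 0.9998, Spearman's rho = 1). RAB25 measured 115, 158 and 169 CPM in control replicates 1 to 3 and 204, 128 and 105 CPM in EGLN3 replicates 1 to 3. The proteasome subunit PSMB3 (r = 0.9996), the translocon subunit SEC61B (0.9994) and the transaldolase TALDO1 (0.9993) were also among the 5 highest. The lowest r belonged to ACTR2, of the ARP2/3 actin complex (-0.9991), SPRED1, an inhibitor of RAS signalling (-0.9990), and the zinc finger gene ZNF778 (-0.9989). An r above 0.9 was found for 21.6% of these genes and one below -0.9 for 22.1%, so a high likeness is not particular to these genes.

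No zinc transporter was called between the plasmids, where edgeR called 0.00636% of all tested genes and put 1.11% at an unadjusted p under 0.05. Of the other SLC30 exporters, 6 of 9 were tested and 0 were called in either direction (edgeR, 0 at an unadjusted p under 0.05), with a median log2 fold change of 0.13. SLC30A6, SLC30A9 and SLC30A5, which move zinc between the cytosol and organelles, had log2 fold changes of 0.26 (SE 0.15), 0.15 (SE 0.15) and 0.10 (SE 0.12). SLC30A6 measured 41.5, 38.6 and 41.5 CPM in controls and 41.3, 47.5 and 56.6 CPM with EGLN3, so EGLN3 replicate 1 kept its groups overlapping. Of the SLC39 importers, 12 of 14 were tested and 0 called (0 at an unadjusted p under 0.05), with a median of -0.01. SLC39A11, SLC39A9 and SLC39A7, which releases zinc from the endoplasmic reticulum, were at -0.15 (SE 0.12), 0.21 (SE 0.18) and -0.16 (SE 0.17).

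Copper handling, glucocorticoid response and neighbouring genes gave the same count. Of 8 tested copper genes, 0 were called, with a median log2 fold change of 0.07, and the importer SLC31A1 and the exporters ATP7A and ATP7B were at 0.10 (SE 0.13), 0.29 (SE 0.40) and 0.11 (SE 0.36). Of these 8, 4 had an r with the first component above 0.9 and 2 one below -0.9. Among 7 tested genes of the glucocorticoid response 0 were called (median 0.10), and DUSP1, PER1 and KLF9 were at 0.24 (SE 0.15), -0.14 (SE 0.13) and 0.15 (SE 0.21). Of 8 tested neighbours of the cluster on chromosome 16, 0 were called (median 0.03), and OGFOD1, NUDT21 and NUP93 were at 0.11 (SE 0.12), 0.10 (SE 0.14) and -0.10 (SE 0.12). Each of these lists had 0 genes at an unadjusted p under 0.05 in edgeR, beside 1.11% of all tested genes.

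Stress genes that share inducers with metallothioneins were also uncalled in the fit as designed. There edgeR called 0 of 11, with 0 at an unadjusted p under 0.05, beside 0.00636% and 1.11% of all tested genes. Their median log2 fold change was 0.06. HMOX1, the heme oxygenase, measured 17.4, 20.7 and 27.8 CPM in controls and 35.4, 30 and 26 CPM with EGLN3, and its log2 fold change was 0.47 (SE 0.21). GCLM, a subunit of the enzyme that starts glutathione synthesis, measured 76.8, 66 and 72.7 CPM in controls and 79.5, 88.4 and 97.7 CPM with EGLN3, at 0.30 (SE 0.14). GCLM was the one gene of the list whose groups did not overlap, as for 6.26% of all tested genes, while 0 of the 6 tested members had groups apart. SLC7A11, which imports cystine, was at 0.34 (SE 0.31). With the surrogate variable alone, 4 of the 11 were called, TXNRD1, SLC7A11, GCLM and HMOX1, beside 737 of 15726 genes. GCLM was then at 0.28 (SE 0.06; edgeR, adjusted p = 0.0071) and SLC7A11 at 0.26 (SE 0.07; adjusted p = 0.024). With the surrogate variable and both trends, HMOX1 was called at 0.59 (SE 0.09; edgeR, adjusted p = 0.00048). That fit called 152 of 15726 genes and 0 of the 6 members.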

How the data were processed

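Whole-number gene counts, not scaled, were deposited for 6 libraries. The authors also deposited FPKM, which from the values equal counts over length, over a single factor for each library. The submitters' processing notes name the build hg38 and the tools DESeq2 1.20.0, HISAT2 2.0.5 and featureCounts 1.5.0-p3. Annotation, strand setting and read length: not given in the sources used here. Per the labels' protocols, total RNA was taken up in Trizol. Sequenced totals set the precision, with 1 CPM at 15.2 to 17.2 counts.

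Groups came from the titles. In R 4.3.3, edgeR 4.0.16 filtered the counts (filterByExpr), applied TMM scaling and ran its quasi-likelihood test (robust, no covariate), with Benjamini-Hochberg adjustment over 15726 genes and calls at an adjusted p under 0.05. The SE is the log2 fold change divided by the root of F. log2 CPM used a prior count of 2. Alternatives were DESeq2 1.42.0, limma-voom (limma 3.58.1), RLE scaling, no filter or 1 CPM in 3 libraries, a replicate block, limma on log2(FPKM + 1) or log2(FPKM + 0.1) with a minimum of 0.5 or none, leaving out each library, and 1 surrogate variable (svaseq, sva 3.50.0) with or without spline trends (5 degrees of freedom) on GC content (99.96% of tested genes) and length. The trends alone, and FPKM by coding length, were added after seeing the data. Transcripts came from GENCODE 29 (GRCh38) and promoters from RefSeq on GRCh38.p14. SCO2 has more than one row and was left out of the copper list. The fits were also run on simulated counts drawn without the main axis of these libraries, so that run does not show how the fits handle it.

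The members and lists were chosen with earlier results of these data known. Named were all members, EGLN3, called list genes, up to 3 genes of each non-marker list with the smallest p, and the 5 genes most and 3 least like the expressed metallothioneins, of which some results are not reported here. KRT8, ERBB2, TFF1, TFF2, COL1A1, COL1A2 and LUM were named outside that rule after their values were seen.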

Additional observations from a re-analysis of the deposited data

How the results depend on the processing

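No member was called under any of the 18 alternatives (smallest adjusted p 0.36, for MT1X with 1 surrogate variable), and MTF1 kept its direction in all 18, between 0.01 and 0.43. The direction of the other 5 turned in at least 1. Leaving out each library in turn gave -0.42 to 0.23 for MT2A, -0.78 to 0.08 for MT1X, -0.02 to 0.47 for MT1E, -0.53 to 0.36 for MT1F and -0.08 to 0.37 for SLC30A1, and 0 to 1 genes called and 0 to 1 members with groups apart (MT1X, without EGLN3 replicate 1). That last count cannot be judged, since the share of all genes with groups apart (6.26%) was computed with all libraries only. MT2A turned to -0.06 with limma-voom, 0.00 without a filter, and -0.05 with limma on log2(FPKM + 1) or log2(FPKM + 0.1) with the minimum and on log2(FPKM + 1) without it. MT1F turned to 0.01 and SLC30A1 to -0.04 with 1 surrogate variable and both trends, and to 0.03 and -0.02 with the trends alone. Genes called numbered 0 with limma-voom (190 at an unadjusted p under 0.05), 0 with log2(FPKM + 1) at the minimum (241) or with none (650), 737 with 1 surrogate variable and 152 with both trends added. Without EGLN3 replicate 1, edgeR put 1409 of 16129 genes at an unadjusted p under 0.05. Among them were 1 of 6 members, MT1X, and 5 of 52 list genes. Leaving out any other library put 0 members there. List genes called were 4 of 52 with 1 surrogate variable, TXNRD1, SLC7A11, GCLM and HMOX1, beside 737 of 15726 genes. All 4 belong to the list of 11 stress genes. With both trends 1 of 52 was called, HMOX1, beside 152 of 15726 genes. The cause was not tested. Mean FPKM by coding length moved from 5.87 to 19.3 for MT1X, the fewer bases being the cause by construction. With the replicate block MT2A was at -0.07 and 0 genes were called (23 at an unadjusted p under 0.05). Deviations of same-numbered libraries correlated at -0.79, -0.18 and -0.67 across genes, so the numbers do not pair them. At the mean counts of MT1E and MT1F over the 6 libraries, counting alone gives a coefficient of variation of 12.2% and 13.8%. Single libraries held 19 to 91 counts, and this error is larger where the counts are fewer.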

Other observations

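Metallothionein pseudogenes and the remaining family genes were almost uncounted. MT1DP, a pseudogene between MT1A and MT1B, held 2, 0 and 0 counts in control replicates 1 to 3, and EGLN3 replicates 1 to 3 held 4, 0 and 3. MT1XP1, a pseudogene related to MT1X, held 1, 0 and 0 counts in controls and 2, 2 and 2 with EGLN3. MT1XP1 shares an exact stretch of 87 nt with MT1X. MT3, best known from brain, held 1 count in all libraries together, and MT4, known from stratified epithelia, held 0.

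SLC39A4, a zinc importer known for uptake from the diet, averaged 174 ± 31.1 CPM for the empty plasmid and 158 ± 70 CPM for EGLN3 (SD, n = 3 each; log2 fold change -0.14, SE 0.32; edgeR, adjusted p = 1). Its 6 libraries, at 141, 177, 203, 238, 125 and 111 CPM for controls 1 to 3 and EGLN3 replicates 1 to 3, stood in the order of MT1X (r = 0.97 with the first component). SLC39A10, another importer, stood in the order of MTF1, at 78.1, 54.7, 44.5, 39.6, 64.7 and 82.8 CPM (r = -0.99). SLC39A4 and SLC39A10 were named after their values were seen.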
